A study of Mus musculus with 6 samples.

Results

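Cys1, Samd8 and Smim5 were examined as 3 of the 52636 genes in a count table of mouse thoracic aorta. They were chosen from the same contrast that is described here, as large decreases in which the groups did not overlap, so their own changes are given as a description without a test. The table held 6 bulk RNA sequencing libraries of aortas taken at 12 weeks of age. 4 libraries were labelled WT, from untreated C57BL/6J mice. 2 were labelled KO, from Tgfbr1/2iSMCKO mice. These are homozygous for loxP-flanked Tgfbr1 (Tgfbr1f/f) and for loxP-flanked Tgfbr2 (Tgfbr2f/f), and carry Myh11-CreERT2, a tamoxifen-inducible Cre driven by a smooth muscle promoter, together with mT/mG, a fluorescent reporter of recombination. Tamoxifen was injected at 2 mg per day for 5 days, starting at 11 weeks. All of these mice were male according to the study's methods, since the Cre transgene lies on the Y chromosome. The WT mice carried neither floxed allele, neither transgene and had no tamoxifen, so receptor loss, Cre, reporter and drug cannot be told apart in these libraries. The comparison asks which transcripts of the aortic wall move within about a week of losing the TGF-β receptors of smooth muscle cells (SMCs).

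The 3 genes encode proteins of unlike kinds. Cystin, the product of Cys1, is a lipid-anchored protein of the primary cilium, the single antenna-like organelle on most resting cells, and its loss causes cystic kidneys in cpk mice. Samd8 encodes SMSr, an enzyme of the endoplasmic reticulum from the sphingomyelin synthase family that joins a phosphoethanolamine head group to ceramide. Smim5 encodes a small single-pass membrane protein whose function is poorly known. Nothing in these roles was used to choose the genes.

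Total counts ran from 19650983 to 28860598 per library. The mitochondrial share was 2.62% to 4.44% among WT, with 3.38% for the library labelled KO-1 and 11.7% for that labelled KO-2. The targeted genes gave no check of the labels at the level of whole-gene counts, where WT and KO overlapped. Counts per exon were not examined, and the cause of the overlap was not tested. Tgfbr1 had normalised counts (counts divided by the DESeq2 size factor of the library) of 3858 to 5420 in WT, with 5780 for KO-1 and 4568 for KO-2. Tgfbr2 had 5327 to 7042 in WT and 5784 and 5937 in KO-1 and KO-2. Columns were matched to groups by their codes and not by sample titles, and KO, KO-1 and KO-2 below mean the libraries so labelled, in that order where a pair of values is given. The labels do not say that libraries came from separate mice, and adjusted p-values measure the spread between these libraries only.

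Sequences of the genes were read first, to show what the transcripts encode and what lies at their start sites. The first 60 bases of the coding frame of Cys1 (transcript Cys1-203) are shown because cystin is held on membranes by a myristoyl lipid attached right after the start, and the second codon is in capitals. The frame is 438 bases and 145 residues long and is the same in Cys1-207 and Cys1-208.
Cys1-203: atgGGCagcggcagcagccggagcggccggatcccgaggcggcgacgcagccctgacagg

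The annotated transcripts of Smim5 hold a pair of longest frames that share their first 127 bases. The frame of Smim5-203, which Smim5-202 also has, is 237 bases and 78 residues long, and that of Smim5-201 is 156 bases and 51 residues long. Capitals mark the bases that are not shared. Counts per gene do not tell these transcripts apart. The frame of Smim6 (171 bases, 56 residues), the nearest gene downstream of Smim5, is printed with them because its transcript was also lower in KO, as described with the neighbouring genes.
Smim5-203: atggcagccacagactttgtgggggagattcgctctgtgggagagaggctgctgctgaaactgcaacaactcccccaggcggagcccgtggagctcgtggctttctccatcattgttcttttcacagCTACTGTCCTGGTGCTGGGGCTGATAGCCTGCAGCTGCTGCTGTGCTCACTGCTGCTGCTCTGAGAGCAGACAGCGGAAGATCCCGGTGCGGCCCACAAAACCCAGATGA
Smim5-201: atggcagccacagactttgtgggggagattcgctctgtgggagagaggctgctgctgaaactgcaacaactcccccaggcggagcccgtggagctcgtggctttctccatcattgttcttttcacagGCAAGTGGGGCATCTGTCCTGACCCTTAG
Smim6-201: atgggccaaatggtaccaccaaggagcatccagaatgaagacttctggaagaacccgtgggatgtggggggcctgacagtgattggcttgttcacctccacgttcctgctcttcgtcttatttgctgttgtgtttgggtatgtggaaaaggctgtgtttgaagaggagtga

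Promoter windows of 300 bases (250 before and 50 after the annotated start) were taken from RefSeq on GRCm38.p6, which held 1 window for Cys1 and 2 for Samd8. Those of both genes are printed because both transcripts were lower in KO. The Cys1 window lies at chr12:24681746-24682045 on the minus strand and has 59% G and C. The Samd8 windows lie at chr14:21750281-21750580 and chr14:21751302-21751601 on the plus strand, with 55.3% and 47% G and C. The median of all 32851 windows was 52.7%. Capitals mark a match to any of 7 motifs searched on both strands.
Cys1 start: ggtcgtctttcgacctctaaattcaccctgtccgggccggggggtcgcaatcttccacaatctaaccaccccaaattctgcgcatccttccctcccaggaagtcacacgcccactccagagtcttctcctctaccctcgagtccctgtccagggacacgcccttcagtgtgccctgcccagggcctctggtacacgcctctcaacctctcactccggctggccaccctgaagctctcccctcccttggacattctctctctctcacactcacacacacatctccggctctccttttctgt
Samd8 start 1: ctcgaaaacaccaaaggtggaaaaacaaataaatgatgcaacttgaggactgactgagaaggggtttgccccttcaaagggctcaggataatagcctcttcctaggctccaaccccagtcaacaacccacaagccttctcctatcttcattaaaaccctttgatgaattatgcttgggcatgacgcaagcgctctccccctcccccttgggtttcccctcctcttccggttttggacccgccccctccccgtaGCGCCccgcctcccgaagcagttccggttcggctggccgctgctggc
Samd8 start 2: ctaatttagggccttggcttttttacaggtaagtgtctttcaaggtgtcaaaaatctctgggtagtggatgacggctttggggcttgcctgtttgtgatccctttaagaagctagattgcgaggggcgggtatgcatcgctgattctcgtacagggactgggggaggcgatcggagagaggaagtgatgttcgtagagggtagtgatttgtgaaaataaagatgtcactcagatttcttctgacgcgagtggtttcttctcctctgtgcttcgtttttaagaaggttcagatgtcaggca

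Of the 7 motifs, 1 matched in these windows. The letters GGCGC, a GC-rich Smad site, were found once on the minus strand of the first Samd8 window, beginning 3 bases after the start. The same letters occur in 36.9% of all promoter windows. The Smad box CAGAC (49.6% of all windows), the AP-1 site TGANTCA (7.81%), the TEAD site CATTCC (14.7%), the E-box CACGTG (7.15%), the TATA box TATAAA (13.6%) and the CArG box of serum response factor (1.63%) had no match in the 3 windows. These are matches of letters and not sites of binding.

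Cys1 (ENSMUSG00000062563.15) lies on chromosome 12, from 24665833 to 24681813 on the minus strand of GRCm38, with 5 exon blocks and 2952 exonic bases. Its normalised counts were 1132 (WT-1), 1184 (WT-2), 1328 (WT-3) and 1065 (WT-4) against 183.6 in KO-1 and 167.2 in KO-2. The underlying counts were 1031, 1318, 1330 and 1020 in WT against 242 and 136 in KO. The WT libraries differed from each other by at most 1.25-fold, and the lowest of them was 5.8 times the higher KO library. WT averaged 1177 ± 111.7 (SD, n = 4) and KO 175.4 ± 11.6 (SD, n = 2), and the fitted log2 fold change was -2.74 ± 0.20 (SE), which is 6.7-fold lower.

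Samd8 (ENSMUSG00000021770.11) lies on chromosome 14, from 21750531 to 21798726 on the plus strand, with 7 exon blocks and 7639 exonic bases. Its normalised counts were 773.3 (WT-1), 793 (WT-2), 870.8 (WT-3) and 786.2 (WT-4) against 83.5 in KO-1 and 129.1 in KO-2. The underlying counts were 704, 883, 872 and 753 in WT against 110 and 105 in KO. Samd8 was the steadiest of the 3 genes in WT, with a highest library 1.13 times the lowest, and the least even in KO, where the libraries stood 1.55-fold apart. WT averaged 805.8 ± 44.1 (SD, n = 4) and KO 106.3 ± 32.2 (SD, n = 2). The fitted log2 fold change was -2.94 ± 0.23 (SE), 7.68-fold lower, and the lowest WT library was 5.99 times the higher KO library.

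Smim5 (ENSMUSG00000048442.15) lies on chromosome 11, from 115899966 to 115906269 on the plus strand, with 3 exon blocks and 1649 exonic bases. Its normalised counts were 1598 (WT-1), 1539 (WT-2), 1045 (WT-3) and 1053 (WT-4) against 134.3 in KO-1 and 164.7 in KO-2. The underlying counts were 1455, 1714, 1046 and 1008 in WT against 177 and 134 in KO. The WT libraries formed a higher pair, WT-1 and WT-2, and a lower pair, WT-3 and WT-4, 1.53-fold apart at the extremes, and the lower pair was still 6.34 times the higher KO library or more. WT averaged 1309 ± 301.3 (SD, n = 4) and KO 149.5 ± 21.5 (SD, n = 2). The fitted log2 fold change was -3.14 ± 0.26 (SE), which is 8.79-fold lower.

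**Figure D1:**
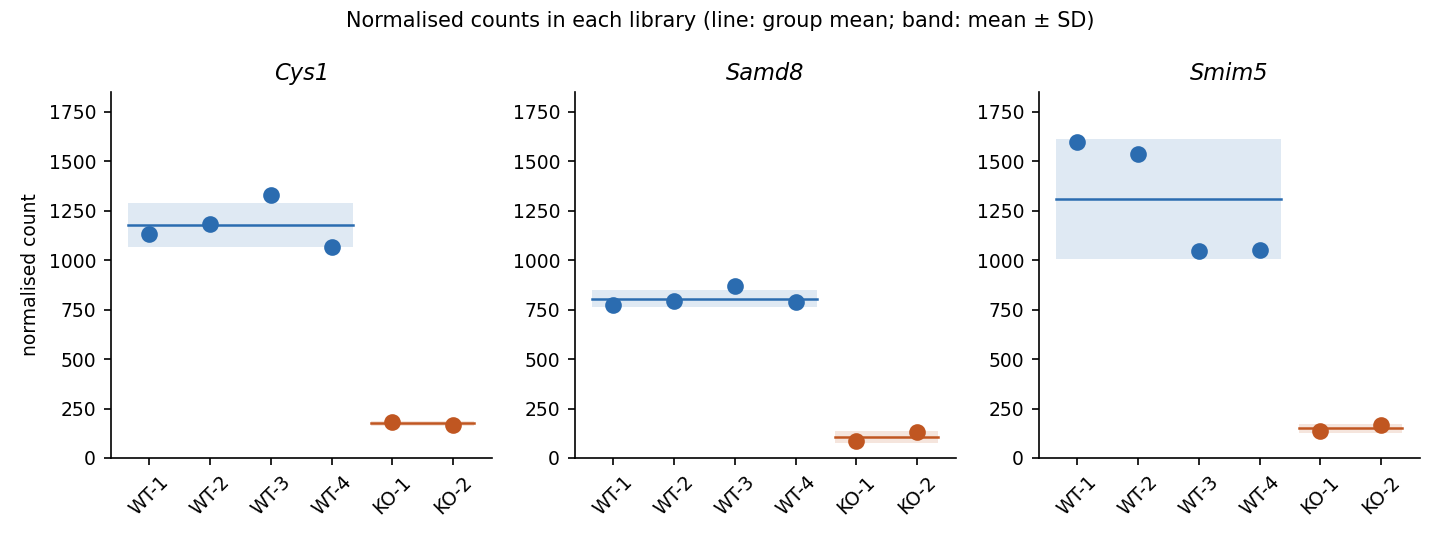
Normalised count (linear axis from 0) of Cys1, Samd8 and Smim5 in each library, with WT in blue and KO in orange; lines are group means and bands are mean ± SD (n = 4 and n = 2). All KO points lie at 183.6 or below and all WT points at 773.3 or above.

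Both KO libraries lay below every WT library for all 3 genes, which the choice of the genes fixed. The same was true of 2802 of the 17070 genes tested (16.4%). The adjusted p-value was under 0.05 with a lower level in KO for 801 genes (4.69%) and with a higher level for 974 (5.71%). With a change above 2-fold as well, 358 genes were lower (2.10%) and 604 higher (3.54%). Of those 358 genes, 337 averaged 10 normalised counts or more, and among them, ordered from the largest decrease, Smim5, Samd8 and Cys1 took places 36, 38 and 48.

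The KO libraries did not order the 3 genes alike. Against the WT mean of its log2 values, the log2 level of Cys1 was at -2.67 in KO-1 and -2.81 in KO-2. Samd8 was at -3.26 in KO-1 and -2.64 in KO-2, and Smim5 at -3.25 and -2.96. Cys1 was thus slightly lower in KO-2, with 1.10-fold between the KO libraries, and the others were lower in KO-1. These gaps between single libraries were not tested. What was left of the WT mean was 15.6% and 14.2% of Cys1, 10.4% and 16.0% of Samd8 and 10.3% and 12.6% of Smim5 in KO-1 and KO-2.

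Levels between the genes were compared per exonic length, in TPM (counts divided by exonic length and scaled to the same sum in every library) computed from the counts. In WT, Smim5 was the highest at 111.2 ± 21.7 TPM, Cys1 followed at 56.3 ± 6.21 TPM and Samd8 was the lowest at 14.9 ± 1.35 TPM (SD, n = 4 each). The library ranges did not overlap, at 90.2 to 134.4 TPM for Smim5, 49.4 to 64.0 TPM for Cys1 and 13.0 to 16.2 TPM for Samd8. These levels exceeded those of 92.4%, 84.2% and 53.7% of the 15530 protein-coding genes with a WT count. In KO the order was kept, with 12.9 ± 0.76 TPM of Smim5, 8.66 ± 2.31 TPM of Cys1 and 1.95 ± 0.20 TPM of Samd8 (SD, n = 2 each).

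Cells other than SMCs differed between the groups, and their values are given here beside the decreases. The 9 SMC markers, among them Myh11, Acta2 and Tagln, were all above 0 in every library and none passed an adjusted p-value of 0.05 in DESeq2. For Tagln, Cnn1 and Smtn both KO libraries lay below every WT library (log2 fold changes -0.41, -0.38 and -0.30). For Myh11, Des and Synpo2 both lay above (0.36, 0.40 and 0.25), and for Acta2, Lmod1 and Mylk the groups overlapped. The sum of all 9, in which these changes partly cancel, was 968755 to 1139709 in WT. It was 938189 for KO-1 and 1113847 for KO-2. Scaled to that sum in each library, the 3 genes differed by log2 ratios of -2.73 (Cys1), -2.94 (Samd8) and -3.15 (Smim5). The sum averaged 1024868 in WT and 1026018 in KO, so this scaling could hardly move the ratios. It is therefore no check of SMC content.

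Several other marker sums were higher in KO, and unequally so in its libraries. Fold over the WT mean was 4.04 in KO-1 and 22.5 in KO-2 for red blood cell markers (4 of 4 tested passed), 1.48 and 10.4 for white adipocyte markers (3 of 6 passed) and 2.85 and 9.94 for brown adipocyte markers (4 of 6). Mesothelial markers stood at 2.75 and 7.13 (5 of 6), cardiac muscle markers at 7.29 and 1.08 (3 of 6) and skeletal muscle markers at 3.28 and 0.93 (0 of 4). Lymphocyte markers stood at 1.93 and 9.33 (0 of 4 tested). Macrophage markers stood at 1.55 and 1.77 (7 of 8), endothelial markers at 1.69 and 1.66 (4 of 8), fibroblast markers at 1.11 and 1.15 (2 of 8) and Schwann cell markers at 1.12 and 0.89 (0 of 5). Markers within a list could differ. Among endothelial markers, log2 fold changes ran from -0.57 for Erg, with both KO libraries below every WT library, to 3.18 for Kdr. In KO-1 the brown adipocyte sum of 3934 held 3153 of Dio2, with Cidea, Cox8b and Ppargc1a above every WT library. Ucp1 (40.2) lay within the WT range there and Elovl3 had no count. Ckm made up 608.5 of the skeletal muscle sum of 672.3 in KO-1. In KO-2 the cardiac muscle markers Tnnt2 (1975) and Actc1 (270.4) lay above every WT library and Ryr2 (1368) below. No marker of any list was lower at an adjusted p-value of 0.05. Their part in the decrease of the 3 genes was not tested. In bulk tissue, fewer cells of a type and less RNA per cell cannot be told apart.

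**Figure D2:**
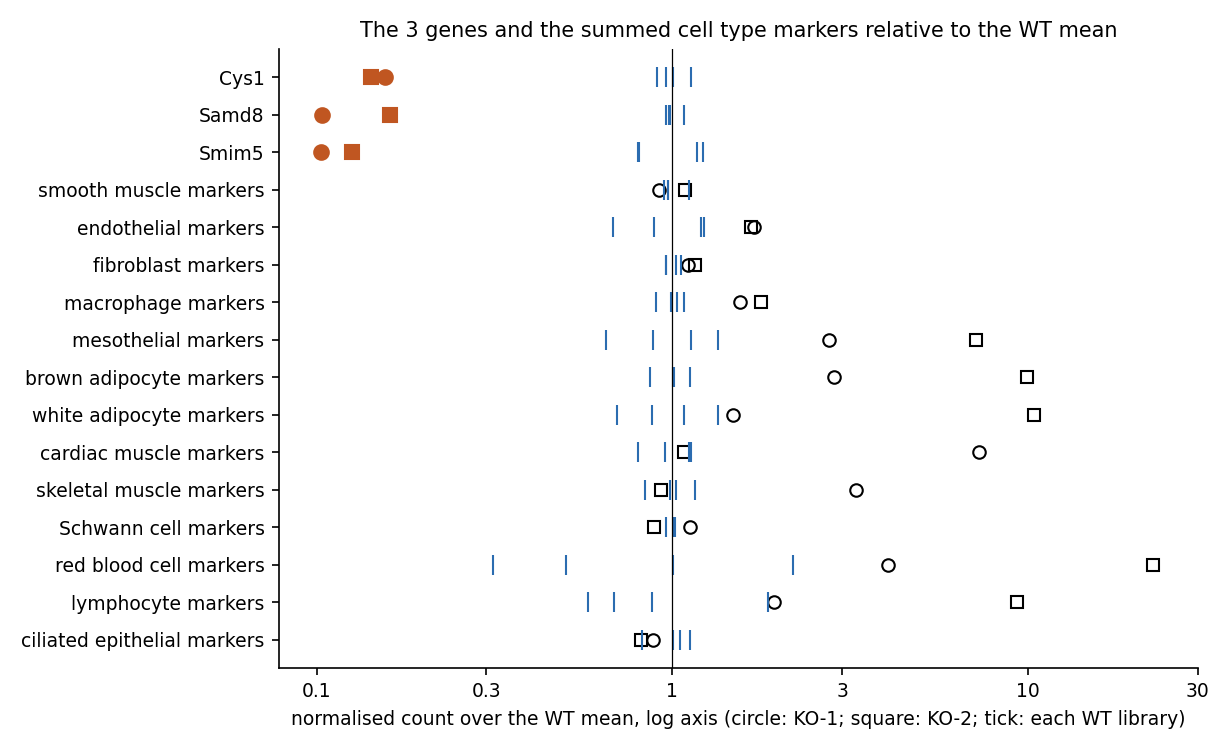
Normalised count over the WT mean on a log axis, for the 3 genes (orange) and for the summed markers of 13 cell types (black), with KO-1 as circles, KO-2 as squares and each WT library as a blue tick. The 3 genes lie between 10.3% and 16.0% of the WT mean in both KO libraries. The sum of the SMC markers lies near 1, and the red blood cell sum reaches 22.5.

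Genes that overlap Samd8 or Smim5 could share reads with them if the counting did not use strand, which is not stated, and were therefore measured. Dusp13, a phosphatase gene on the opposite strand, overlaps 651 bases at the start of Samd8 with no exonic base in common, and had 5 counts in WT-2 and 0 in the other libraries. Smim5 lies whole (6304 bases) inside Recql5, a DNA helicase gene on the opposite strand, also with no exonic base in common. Recql5 had 438.3, 375.4, 336.5 and 438.5 normalised counts in WT and 385.5 and 318.4 in KO, with a log2 fold change of -0.17 ± 0.23 (SE, adjusted p = 0.734 in DESeq2). The groups overlapped for Recql5. No annotated gene overlaps Cys1.

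Stretches shared with other genes were sought in the annotated transcripts, at 100 bases or more and 90% identity or more. None was found for the 8 transcripts of Cys1 and the 3 of Smim5. The long Samd8 transcript (Samd8-202, 6801 bases) shared such stretches with transcripts of 1021 other genes, all between bases 4791 and 5703 and covering 912 bases, beyond its coding frame of 1248 bases. The longest was 520 bases at 93.3% identity to Sumo2, in reverse orientation. Sumo2 itself had a log2 fold change of 0.16 ± 0.26 (SE, adjusted p = 0.782 in DESeq2). The other 3 Samd8 transcripts shared none, and how reads of the repeated stretch were counted is not given in the sources used here, so that share of the Samd8 count is uncertain.

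Within 250 kb of the 3 genes, 56 other genes are annotated and 32 were tested. In the DESeq2 fit 3 were lower and 2 higher at an adjusted p-value of 0.05, beside 4.69% and 5.71% of all genes. All 3 lower ones lie downstream of Smim5, which had 19 tested neighbours. None of the 7 tested neighbours of Cys1 passed, and 1 of 6 of Samd8 did. The median log2 fold change of the 32 was -0.04, against 0.01 over all genes tested. Without KO-1, 3 were lower and 0 higher, and without KO-2, 2 and 0. The count of higher neighbours was 1 without WT-2 and without WT-3.

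Smim6, which encodes endoregulin, a small membrane protein that binds the calcium pump SERCA, begins 5.7 kb downstream of Smim5 on the same strand. Its normalised counts were 85.7 (WT-1), 48.5 (WT-2), 31.0 (WT-3) and 32.4 (WT-4) against 8.35 in KO-1 and 9.83 in KO-2, from 31 to 78 counts in WT and 11 and 8 in KO. As for Smim5, WT-1 and WT-2 were the higher pair, and no WT library reached down to KO. The log2 fold change was -2.45 ± 0.66 (SE, adjusted p = 0.00446 in DESeq2). Without KO-1 it was -2.32 (adjusted p = 0.061) and without KO-2 -2.55 (adjusted p = 0.0405), and edgeR put it at the threshold or above (adjusted p = 0.05 and 0.0973). Per length, Smim6 was at 6.97 TPM in WT, far below Smim5.

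Farther downstream of Smim5, Trim47, which encodes a ubiquitin ligase, lies at 199.5 kb. It fell from 2405 to 3422 normalised counts in WT to 1143 and 988.2 in KO-1 and KO-2, a log2 fold change of -1.49 ± 0.20 (SE, adjusted p = 3.97e-11 in DESeq2). Galk1, for galactokinase, at 102.2 kb, fell from 414.4 to 659 in WT to 321.7 and 218.8 in KO, by 1.02 on the log2 scale (SE 0.27, adjusted p = 0.0038). Without KO-2, the Galk1 change was -0.77 with an adjusted p of 0.144. Between Smim6 and Galk1 lies Itgb4, the integrin β4 subunit, which was higher in KO (888.5 and 834.6 against 394.3 to 605.3, log2 fold change 0.73 ± 0.22 SE, adjusted p = 0.0144). The Itgb4 call was lost without KO-1 (0.69, adjusted p = 0.0869) and without KO-2 (0.79, adjusted p = 0.0667). The 15 other tested neighbours of Smim5, both upstream and downstream, did not pass, among them Llgl2 on the upstream side (-0.46 ± 0.32 SE, adjusted p = 0.433).

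Near Cys1 the closest gene is Klf11, a Krüppel-like transcription factor gene that lies 3.0 kb beyond its 3′ end on the opposite strand. Klf11 had 415.2, 640.3, 561.2 and 715.2 normalised counts in WT and 383.9 and 410.5 in KO. Its log2 fold change was -0.55 ± 0.25 (SE, adjusted p = 0.156 in DESeq2). The WT library nearest to KO was WT-1, and without it the change was -0.69 with an adjusted p of 0.0207. On the other side, at 26.4 kb, Rrm2, a ribonucleotide reductase subunit of dividing cells, had 30.3 to 61.1 in WT and 50.1 and 100.8 in KO (log2 fold change 0.75 ± 0.50 SE, adjusted p = 0.394).

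Near Samd8, Kat6b, a histone acetyltransferase gene, lies 78.1 kb upstream and Vdac2, a channel of the outer mitochondrial membrane, 26.5 kb downstream. Their log2 fold changes were 0.23 ± 0.19 (SE, adjusted p = 0.524) and 0.26 ± 0.17 (SE, adjusted p = 0.392) in DESeq2. Zfp503, a zinc finger gene 185.2 kb downstream, was higher in KO at 857.4 and 939.1 against 452.1 to 641.5 in WT (0.61 ± 0.22 SE, adjusted p = 0.0455). That call was lost without any 1 of WT-1, WT-2, WT-3, KO-1 and KO-2 (adjusted p = 0.0581, 0.0768, 0.068, 0.0693 and 0.233). Within 1 Mb of the 3 genes, 5 of 91 tested genes were lower and 3 higher, beside 4.69% and 5.71% of all genes.

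**Figure D3:**
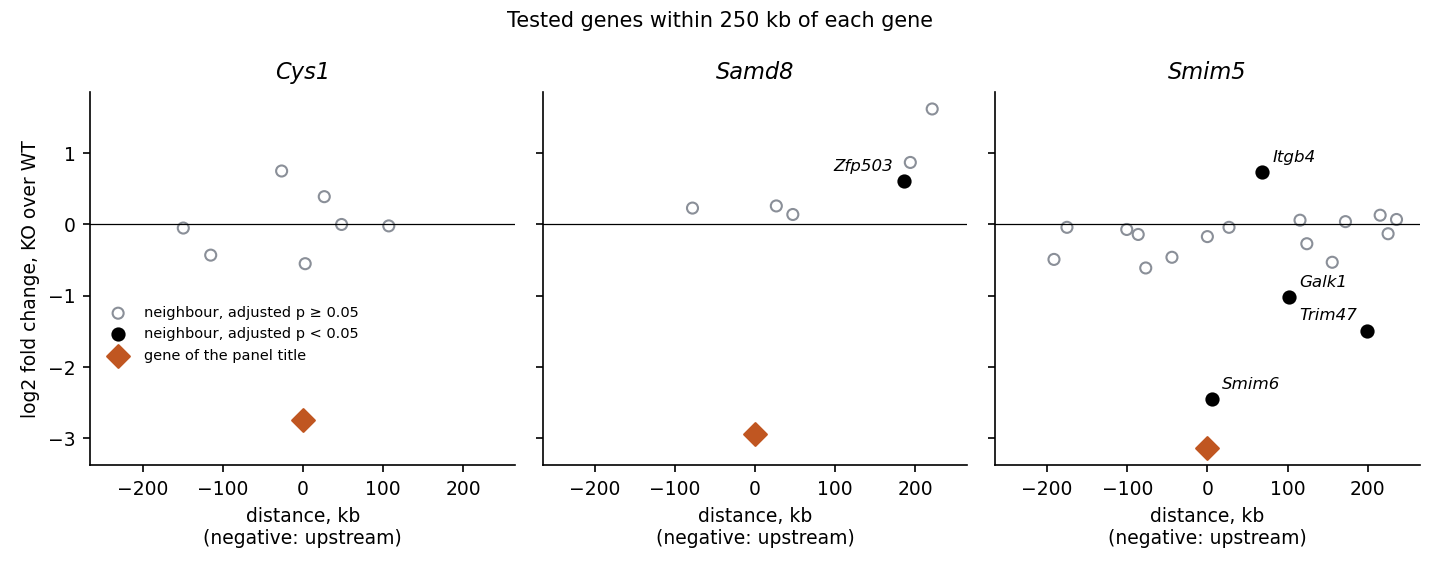
Fitted log2 fold change (KO over WT) of every tested gene within 250 kb, against its distance in kb from Cys1, Samd8 or Smim5, with upstream as negative. Filled points passed an adjusted p-value of 0.05 and diamonds are the 3 genes. Around Cys1 and Samd8 no neighbour lies below -0.55, while 3 filled points lie below -1 downstream of Smim5.

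The enzymes around Samd8 were then described from a list of 56 genes of sphingolipid metabolism, of which 50 were tested. Ceramide is the branch point of this pathway, from which sphingomyelin, ceramide phosphoethanolamine, glycolipids and sphingosine-1-phosphate are made. 1 gene was lower and 3 were higher at an adjusted p-value of 0.05 in DESeq2, beside 4.69% and 5.71% of all genes, and the median log2 fold change was 0.09 against 0.01 over all genes tested. Without KO-1, 5 were lower and 4 higher. Without WT-3 or without WT-4, 2 were lower and 4 higher, and without WT-2, 1 and 2.

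The closest relatives of Samd8 are Sgms1 and Sgms2, the synthases that transfer phosphocholine to ceramide to make sphingomyelin. Sgms1 had 584.4 to 810.3 normalised counts in WT and 895.4 and 765.8 in KO (log2 fold change 0.24 ± 0.21 SE, adjusted p = 0.55 in DESeq2). Sgms2 had 743.6 to 1031 in WT and 1039 and 950.1 in KO (0.10 ± 0.20 SE, adjusted p = 0.84). The groups overlapped for both genes. Per length, Samd8 at 14.9 TPM lay between Sgms1 at 9.49 and Sgms2 at 21.2 TPM in WT, and with 1.95 TPM it was below both in KO (11.5 and 23.3 TPM).

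By role, no gene passed among 7 tested genes of the first steps of synthesis, 7 ceramide synthases and desaturases, and 7 genes of head group transfer and ceramide transport. The 1 lower gene, Selenoi, is one of 6 genes that supply phosphatidylethanolamine, the donor of the head group that SMSr transfers, and encodes an ethanolamine phosphotransferase. It had 426.2, 223.6, 564.2 and 549.2 normalised counts in WT and 93.3 and 102 in KO-1 and KO-2, a log2 fold change of -2.18 ± 0.36 (SE, adjusted p = 1.27e-07 in DESeq2). WT-2 was the lowest WT library and still stood above both KO libraries. Pcyt2, for the enzyme ahead of Selenoi in the same route, had 803.2 in WT and 517.4 in KO on average (-0.64, adjusted p = 0.0585).

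Among 13 tested genes for the breakdown of ceramide and its products, 2 were higher and 0 lower, beside 5.71% and 4.69% of all genes. Smpd3, a neutral sphingomyelinase, had 211.9 to 334.1 normalised counts in WT and 538 and 516.2 in KO-1 and KO-2 (log2 fold change 1.04 ± 0.26 SE, adjusted p = 0.00139 in DESeq2). Acer3, an alkaline ceramidase, had 498.7 to 663 in WT and 874.9 and 961.2 in KO (0.67 ± 0.21 SE, adjusted p = 0.0188). The Acer3 call was lost without WT-2 (adjusted p = 0.0739) and without KO-2 (0.154). Of the 10 tested genes for sphingosine-1-phosphate, 1 was higher: S1pr1, a receptor that is abundant on endothelium, rose from 372.4 to 650.5 in WT to 1511 and 1604 in KO (1.64 ± 0.24 SE, adjusted p = 1.52e-09). Endothelial markers summed to 1.69 and 1.66 times the WT mean in the same libraries. Single endothelial markers differed, with log2 fold changes from -0.57 (Erg) to 3.18 (Kdr). The part of endothelial cells in the S1pr1 value was not tested.

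The genes around Cys1 came from a list of 89 genes of the cilium and of cystic kidney disease, of which 86 were tested. Cystin is carried to the cilium as a myristoylated cargo that is bound by Unc119 proteins and released by the small GTPase Arl3. 4 genes of the list were lower and 1 was higher at an adjusted p-value of 0.05 in DESeq2, beside 4.69% and 5.71% of all genes, and the median log2 fold change was -0.04. Without KO-1, 9 were lower and 2 higher, and without KO-2, 2 and 2. Without WT-3 they were 4 and 2.

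The transport machinery of cystin held 9 tested genes, and none passed. Unc119 had 599.7, 539.7, 367.5 and 305.9 normalised counts in WT and 298.2 and 292.5 in KO (log2 fold change -0.62 ± 0.30 SE, adjusted p = 0.19 in DESeq2). The WT libraries ranged widely, and WT-4 was close to both KO libraries. Unc119b had 637.1 to 752.6 in WT and 1064 and 548.2 in KO (0.17 ± 0.26 SE, adjusted p = 0.786), with 1 KO library above and 1 below every WT library, and without KO-1 its change was -0.39. Arl3 had 1045 to 1318 in WT and 1172 and 1476 in KO (0.20 ± 0.20 SE, adjusted p = 0.601). The N-myristoyltransferases Nmt1 and Nmt2, which attach the lipid, had log2 fold changes of -0.04 (adjusted p = 0.92) and -0.25 (adjusted p = 0.339).

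Of 8 tested cystic kidney genes, 3 were lower and 1 was higher at an adjusted p-value of 0.05 in DESeq2, beside 4.69% and 5.71% of all genes. Their median log2 fold change was -0.02. Pkd1, for polycystin-1, had 21540 to 23608 normalised counts in WT and 13637 and 8838 in KO-1 and KO-2, a log2 fold change of -0.99 ± 0.20 (SE, adjusted p = 2.46e-05 in DESeq2). Its partner Pkd2 had 3659 to 4360 in WT and 4975 and 3361 in KO (0.08 ± 0.20 SE, adjusted p = 0.87), with KO libraries on both sides of WT, and without KO-1 its change was -0.23. Dzip1l, a gene of the ciliary base, had 1085 to 1281 in WT and 725.4 and 588.8 in KO (-0.81 ± 0.19 SE, adjusted p = 0.000492).

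The cystic kidney genes Glis2 and Glis3 moved in opposite directions. Glis2 had 827.1 to 854.1 normalised counts in WT and 650.3 and 467.1 in KO-1 and KO-2 (log2 fold change -0.59 ± 0.20 SE, adjusted p = 0.0359 in DESeq2), a call that was lost without any 1 of WT-1, WT-2, WT-3, WT-4 and KO-2 (adjusted p = 0.0673, 0.0935, 0.0732, 0.0766 and 0.259). Glis3 had 79.9 to 116.9 in WT and 222.3 and 210.2 in KO (1.09 ± 0.29 SE, adjusted p = 0.00424). Of 18 transition zone genes 1 was lower, Tctn1, with 745 to 906.1 in WT and 538 and 449.9 in KO (-0.75 ± 0.20 SE, adjusted p = 0.00289), and without KO-2 its change was -0.62 with an adjusted p of 0.0547. None passed among 25 tested genes of intraflagellar transport, 13 of the BBSome, 9 of ciliary hedgehog signalling and 4 of the inversin compartment. Markers of cells with motile cilia had a sum of 264.7 to 359.5 normalised counts in WT and 283 and 261.8 in KO. For Dnah5 both KO libraries lay below every WT library (log2 fold change -1.16, adjusted p = 0.116 in DESeq2). The groups overlapped for Rsph1 and Ccdc39. Tekt1 had no count in any library, and of 6 such markers 3 were tested and none passed.

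The list that carries the name of Smim5 groups genes by the size and place of their products and not by descent. Of 43 symbols, 27 were found in the table and 20 were tested. At an adjusted p-value of 0.05 in DESeq2, 1 was lower, Smim6, and 0 were higher, beside 4.69% and 5.71% of all genes. The median log2 fold change was -0.28 against 0.01 over all genes tested. Without KO-1, 3 were lower and Smim6 was not among them, and without WT-4, 2 were lower. The 19 that did not pass ranged from Smim14, with 3953 normalised counts in WT and 3361 in KO on average (-0.23, adjusted p = 0.455), to genes with about 10 counts.

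**Figure D4:**
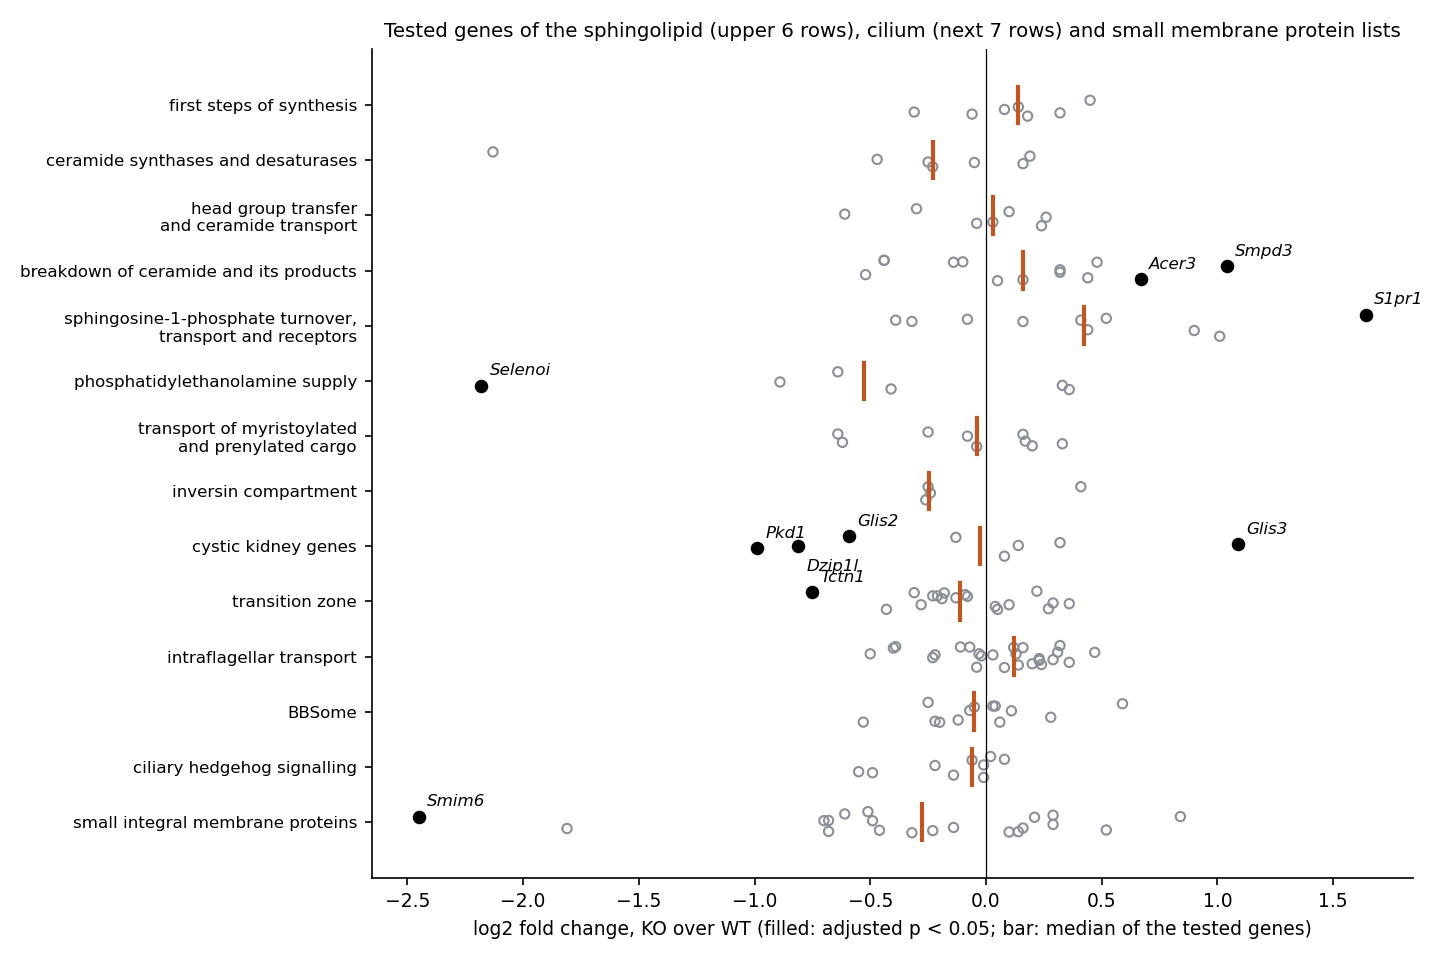
Fitted log2 fold change (KO over WT) of each tested gene, in rows by role, for the sphingolipid list (upper 6 rows), the cilium list (next 7 rows) and the small membrane protein genes (lowest row). Filled points passed an adjusted p-value of 0.05 and bars are medians of the tested genes. Most points lie between -1 and 1, and the lower exceptions that passed are Selenoi (-2.18) and Smim6 (-2.45).

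Genes with the most similar pattern over the 6 libraries were found by the distance between log2 values less their WT means, among genes averaging 100 normalised counts or more. The contrast is the one that chose the 3 genes, so the list is a description. Nearest to Cys1 were Gm12992 (distance 0.42), Mylk4 (0.51), Arhgef19 (0.53), Acan (0.57) and Rab6b (0.61), all with log2 fold changes of -2.39 or lower. Mylk4 encodes a myosin light chain kinase family member, and Acan the proteoglycan aggrecan. Near Samd8 were Rab6b (0.58), Cys1 (0.63), Gm12992 (0.66) and Smim5 (0.75).

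Nearest to Smim5 were Mylk2 (0.56), the non-coding 5430431A17Rik (0.60), Samd8 (0.75), Arhgef19 (0.82) and Rab6b (0.83). Mylk2, for the skeletal muscle myosin light chain kinase, had 2371, 2679, 2093 and 1706 normalised counts in WT and 179.8 and 226.2 in KO (log2 fold change -3.45). 5430431A17Rik had 295.5, 298.1, 152.8 and 165 in WT and 28.1 and 20.9 in KO, with the same higher pair WT-1 and WT-2 as Smim5. Rab6b, a small GTPase of Golgi transport, was the 1 gene on all 3 lists, with 774.8 to 964.4 in WT and 117.6 and 172.1 in KO. Among the 3 genes themselves, Cys1 and Samd8 lay 0.63 apart, Samd8 and Smim5 0.75 and Cys1 and Smim5 0.90.

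**Figure D5:**
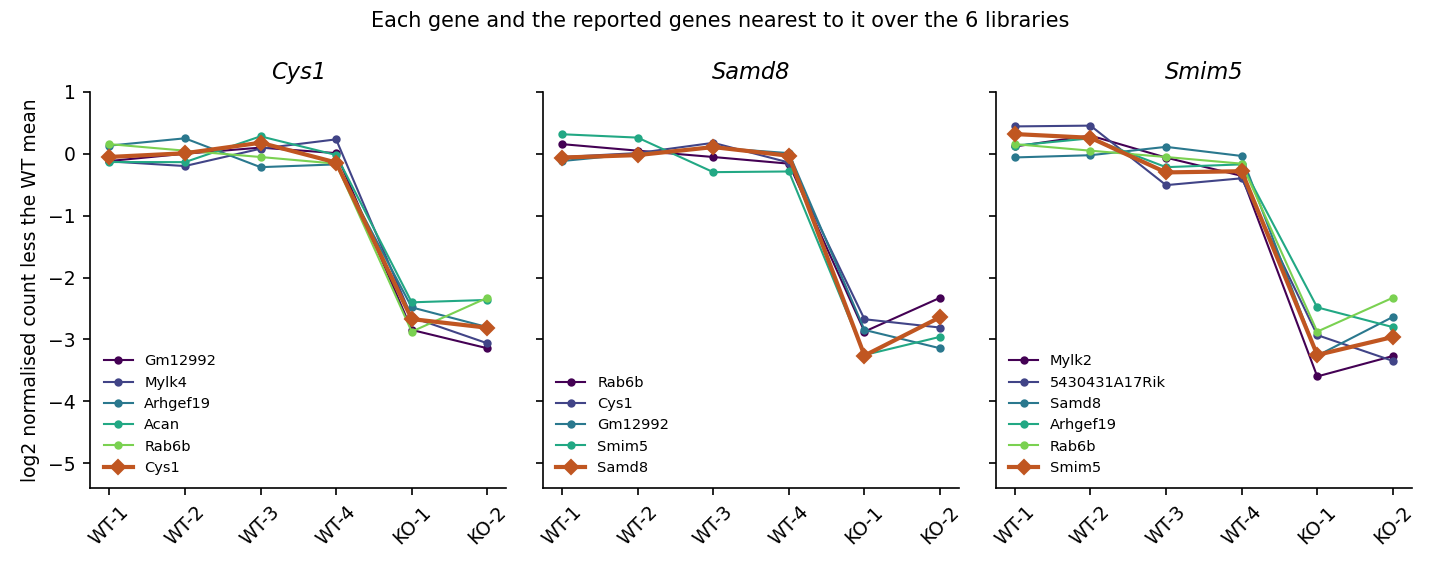
Log2 normalised count less the WT mean in each library for Cys1, Samd8 and Smim5 (orange) and the genes nearest to each, 5 for Cys1 and Smim5 and 4 for Samd8; lines only join the points of 1 gene. In each panel the WT points lie around 0 and the KO points of the other genes lie near those of the gene in the title.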

How the data were processed

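RNA of thoracic aortas was sequenced in 6 libraries, 4 labelled WT and 2 labelled KO. The authors trimmed the reads, mapped them to GRCm38 (mm10) with HISAT2, quantified transcripts with StringTie (gene models of GENCODE M15) and tested them with DESeq2. What the authors deposited are estimated read counts for each gene, as whole numbers that are not scaled for depth. How they were turned into whole numbers, and whether strand was used, is not given in the sources used here. Columns carry codes and not sample titles, and the code with 4 numbers was taken as WT and that with 2 as KO.

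Of 52636 genes, 27151 had no count. Gene positions, names and transcripts came from GENCODE M21 on GRCm38, to which 52489 identifiers matched without their version, and 147 did not match. KO was compared with WT by DESeq2 1.42.0 (R 4.3.3) on all 6 libraries, as a Wald test with default size factors and filtering, and 17070 genes received a Benjamini-Hochberg adjusted p-value. The thresholds were an adjusted p-value of 0.05 and, for calls, a change above 2-fold. The fit was tested on simulated data. Total counts ran from 19650983 to 28860598 per library. The labels name no batch.

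Cys1, Samd8 and Smim5, the gene lists and the tests were chosen with earlier results of these data known, so no pattern seen in them is independent support. Named genes were the 3 genes, genes overlapping them, their nearest tested protein-coding neighbour on each side, neighbours within 250 kb and genes of each list (at most 10) with an adjusted p-value under 0.05, Sgms1, Sgms2, Unc119, Unc119b, Arl3, Pkd1 and Pkd2, and per gene the 5 genes with the smallest Euclidean distance over the 6 libraries (pseudocount of 0.5 on the log2 scale). 1 gene near Samd8 is not reported here. Nmt1, Nmt2, Pcyt2, Smim14 and Sumo2 were named after their values were seen. Shared stretches were sought with megablast (word size 28) in all annotated transcripts, and reading frames are the longest from a start to a stop codon. The alternatives were edgeR 4.0.16 (quasi-likelihood test, TMM, with and without a low-count filter), DESeq2 with a filter of 10 counts in 2 libraries, with TMM factors or total counts as scaling, against a 2-fold change, without each library and with the replicate number as a block. Scaling to summed smooth muscle markers was added after seeing the data.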

Additional observations from a re-analysis of the deposited data

Results flagged for a closer look

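Among the 4 WT libraries, the values of 42 genes and marker sums were searched for a library standing apart from the rest (Dixon's test at its 95% critical value for 4 values), and 3 were found where chance alone gives about 2.1 (1 in 20). Unc119b was at 637.1 normalised counts in WT-3 and between 744.7 and 752.6 in the other WT libraries. Zfp503 was at 452.1 in WT-4 and between 619.1 and 641.5 in the others. The summed smooth muscle markers were at 1139709 in WT-3 and between 968755 and 997140 in the others. Cys1, Samd8 and Smim5 had no such library.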

How the results depend on the processing

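The log2 fold changes over the 14 alternatives were -2.81 to -2.67 for Cys1, -3.26 to -2.64 for Samd8 and -3.40 to -2.99 for Smim5. Their direction was fixed by the choice of the genes as large decreases without overlap in these same libraries. Samd8 alone moved by more than its spread in WT, to -2.64 without KO-1 and -3.26 without KO-2. Calls had an adjusted p-value under 0.05 and a change above 2-fold. Over all genes there were 962, which fell to 633 and 428 in edgeR (with and without a filter), 114 against a 2-fold change and 561 with the replicate block. With a library left out there were 636 to 1284, the lowest without KO-2, where the share that was higher went from 62.8% to 48.1%. Calls of the sphingolipid list (3) were 0 against a 2-fold change and 2 to 5 with a library left out, 5 without KO-1. Those of the cilium list (1) were 2 and 0 in edgeR with and without a filter, 0 against a 2-fold change and 1 to 6 with a library left out, 2 without WT-2 and 6 without KO-1. The small membrane protein call (1, Smim6) was 0 in both edgeR fits, against a 2-fold change and with the replicate block, and was 1 with any library left out, though not Smim6 without KO-1. Calls among neighbours (3) were 1 in both edgeR fits, 0 against a 2-fold change, 2 to 3 with a library left out, and 5 within 1 Mb. The cause of these moves was not tested. Changes of direction were limited to Pkd2 (-0.23) and Unc119b (-0.39), both without KO-1, where leaving out 1 library gave -0.23 to 0.35 and -0.39 to 0.57. In edgeR with and without its filter the adjusted p-values also rose above 0.05 for Acer3 (0.0589 and 0.14), Galk1 (0.0552 and 0.118), Glis2 (0.0693 and 0.219), Itgb4 (0.0561 and 0.135) and Zfp503 (0.0885 and 0.213). Without the filter they did so for Dzip1l (0.0602), Glis3 (0.0623), Smpd3 (0.056) and Tctn1 (0.0856). Total counts as scaling moved Glis2 to 0.114 and shifted the median gene by 0.04 on the log2 scale. With the replicate block they rose above 0.05 for Acer3 (0.155), Dzip1l (0.123), Glis2 (0.472), Glis3 (0.405), Itgb4 (0.25), Smim6 (0.115), Tctn1 (0.157) and Zfp503 (0.599), and the cilium list went from 4 lower and 1 higher to 1 and 0. Deviations from the group means correlated at -0.073 (WT-1 with KO-1) and 0.026 (WT-2 with KO-2) over 14125 genes. With 2 KO libraries their deviations mirror each other, so these values cannot decide whether library numbers pair WT with KO. By correlation in place of distance, 2 of the 5 genes nearest to Cys1 and 0 of 5 for Samd8 and for Smim5 were found again. With 2 KO libraries, depth was not the limit for the 3 genes, whose lowest count was 105, while Smim6 rested on 8 and 11 counts in KO.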
